A study of Mus musculus with 6 samples.

Results

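The transcripts described here are those of the inflammatory cytokines Il1a, Il1b, Il6, Tnf and Il10, of the IL-1 receptor antagonist Il1rn, and of the receptors Il1r1, Il1r2, Tnfrsf1a and Tnfrsf1b. They were chosen by gene name, and all 10 were found among the 26012 genes of the table and had a mean of at least 1 normalized count. RNA-seq had been performed on ventricles of 6 male C57BL/6 mice aged 8 weeks, taken 4 days after myocardial infarction (MI), which was made by tying off the left anterior descending (LAD) coronary artery. Immediately after ligation, 3 hearts received an intra-cardiac injection of control mimic and 3 received miR-19a/19b mimics, in both groups 10 μg per heart in a lipid-based delivery reagent. A miRNA mimic is a synthetic duplex that acts as the mature miRNA in cells that take it up. All 6 hearts were infarcted and injected, and no sham-operated or uninjected heart is part of the comparison. The question was which transcripts differ between the groups in the early phase of protection after MI.

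IL-1, TNF and IL-6 are released within hours of infarction by leukocytes and by resident cells of the heart, and they drive the recruitment of neutrophils and monocytes. IL-1 alpha and IL-1 beta signal through the type I receptor (Il1r1). The antagonist (Il1rn) occupies that receptor without activating it, and the type II receptor (Il1r2) is a decoy that binds IL-1 and does not signal. TNF signals through a widely expressed receptor (Tnfrsf1a) and through a receptor found mainly on leukocytes and endothelium (Tnfrsf1b). IL-10 restrains the production of the other cytokines by macrophages.

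Both injected miRNAs are shown because the same seed is searched for in the cytokine transcripts. The mature sequences from RefSeq (GRCm38) are printed with the seed, bases 2 to 8, in capitals. Mir19a lies at chr14:115044048-115044070, plus strand, and Mir19b-1 at chr14:115044358-115044380, plus strand.
miR-19a-3p: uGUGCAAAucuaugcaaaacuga
miR-19b-3p: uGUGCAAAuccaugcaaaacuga
They differ at 1 base outside the seed. Matches to the seed were searched in the longest annotated 3′ UTR of each gene as TTTGCAC (paired to the whole seed), TTGCACA (a shorter pairing followed by A) and their union TTTGCACA. In 4 of the 10 members there was a match of 7 bases, and in 0 of them the match of 8 bases. Among 15820 genes tested that have an annotated 3′ UTR, 18.4% held a match and 5.5% held the match of 8 bases. UTR length sets much of this share, and in UTRs within 2-fold of the length of Tnf it was 12%, against 36.9% for Il1r1 and 28.1% for Tnfrsf1b. The matches lie in Tnf, Il1a, Il1r1 and at 2 places in Tnfrsf1b, and are shown with their surroundings, read on the strand of the gene, so that they can be set beside the levels of these genes. The windows are at chr17:35199701-35199727 (minus strand, Tnf), chr2:129300605-129300631 (minus, Il1a), chr1:40315870-40315896 (plus, Il1r1), chr4:145213878-145213904 and chr4:145213518-145213544 (minus, Tnfrsf1b), all in 3′ UTRs on GRCm38, with the match in capitals.
Tnf: tctatttataTTTGCACttattattta
Il1a: cctgagtcacTTGCACAgcatgtgctg
Il1r1: gttgcaaaagTTTGCACgtgcaaccgt
Tnfrsf1b, first: tacccagagcTTGCACAttttctagtc
Tnfrsf1b, second: catcacattcTTGCACAcacactcaca
The match in Tnf begins at position 428 of the 3′ UTR and the AU-rich element of this gene at position 438, a run of overlapping TTATTTATT nonamers that is known to make Tnf mRNA short-lived. The last of its 5 nonamers is shown in capitals within the window chr17:35199668-35199694.
Tnf, AU-rich: atttattatTTATTTATTtgcttatga
Of UTRs within 2-fold of this length, 5.4% held a nonamer and 0.08% held 5 or more. The core pentamer ATTTA, which lies within the nonamer, occurred in 7 of the 10 members and in 67.8% of all 3′ UTRs. Its density was 10.47 per kb in Tnf, 8.71 in Il1b, 8.5 in Il10 and 6.0 in Il6. It was 2.72 in Il1a, 2.07 in Il1r1 and 0.86 in Tnfrsf1b, where the median over UTRs, without very short ones, was 1.29 per kb. Il1rn, Il1r2 and Tnfrsf1a had 0. The 3′ UTR of Il1r2 is only 24 bases long, against 764 for Tnf, so the lack of a pentamer or seed match there says little. A match of letters is a description and does not show that a miRNA or protein binds there.

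NF-kB is the transcription factor through which IL-1 and TNF act and which is known to drive several of these genes. A 10-base form of its motif, GGG, any 2 bases and then TTTCC, was searched on both strands of RefSeq promoters (GRCm38). The search ran from 250 bases before to 50 bases after the start site, and other forms were not searched. Promoters were found for 9 of the members, all but Il10. This form of the motif was present in 2 of the 9, Il6 and Il1rn, and in 1.89% of all genes with a promoter. It begins 44 bases before the start of Il6 (window chr5:30013061-30013088) and 29 bases after a start site of Il1rn (window chr2:24345311-24345338), both on the plus strand, and is shown in capitals.
Il6: atcaaatgtGGGATTTTCCcatgagtct
Il1rn: gaaatatgaGGGTTTTTCCgcttctgac
Il1rn had 3 promoters to search, of which 2 held the motif, and Il1r1 had 2. No match in the other 7 genes says only that these letters are not there.

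The values are normalized counts, in which the reads of a gene have been divided by the size factor of the heart's library. Between 19398196 and 23645308 reads per heart had been counted on genes, and 1 read is worth between 0.864 and 1.11 normalized counts. The hearts were not alike within a group. miR-19a/19b mimic replicate 3 stood furthest from its replicates, with a chi-square per degree of freedom of 121 and 135 against them, where the other pairs within a group had 10.3 to 26.6. Its summed counts of 9 cardiomyocyte genes were 318603, against 861369 and 952665 in the other miR-19a/19b mimic hearts and 517983 to 686186 in control mimic hearts. miR-19a/19b mimic replicate 1 had 3543 normalized counts over 14 skeletal muscle genes, against 37.1 to 76.1 in the other hearts. Differences were tested with limma, on the log2 of the normalized count plus 1, in the 21126 genes that reached a mean of 1, with p-values adjusted over all of them by the Benjamini and Hochberg method, and a log2 fold change is given as miR-19a/19b mimic against control mimic with its standard error (SE). Fold changes on this scale understate the change of genes with few reads. Whole tissue was sequenced, so fewer cells of a type and less RNA per cell cannot be told apart.

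None of the 10 cytokine and receptor transcripts differed between miR-19a/19b mimic and control mimic hearts beyond the spread between hearts. In limma, 0 of the 10 had an adjusted p-value under 0.05 and 0 had an unadjusted p-value under 0.05, where 0.0% and 4.01% of all genes tested did. DESeq2, edgeR's quasi-likelihood test and limma-voom on the recovered reads also gave 0 and 0. The groups overlapped for every one of the 10, and over all genes tested they did not overlap for 9.2%. Fitted changes were below 0 for 9 of the 10, against 49.2% of all genes tested, with a median of -0.16 against 0.00 over all genes. That count rested on 1 heart. Without miR-19a/19b mimic replicate 1 it was 3 of 10 (Il1rn, Il1r1 and Tnfrsf1b), and without any other single heart it was between 7 and 10.

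**Figure D1:**
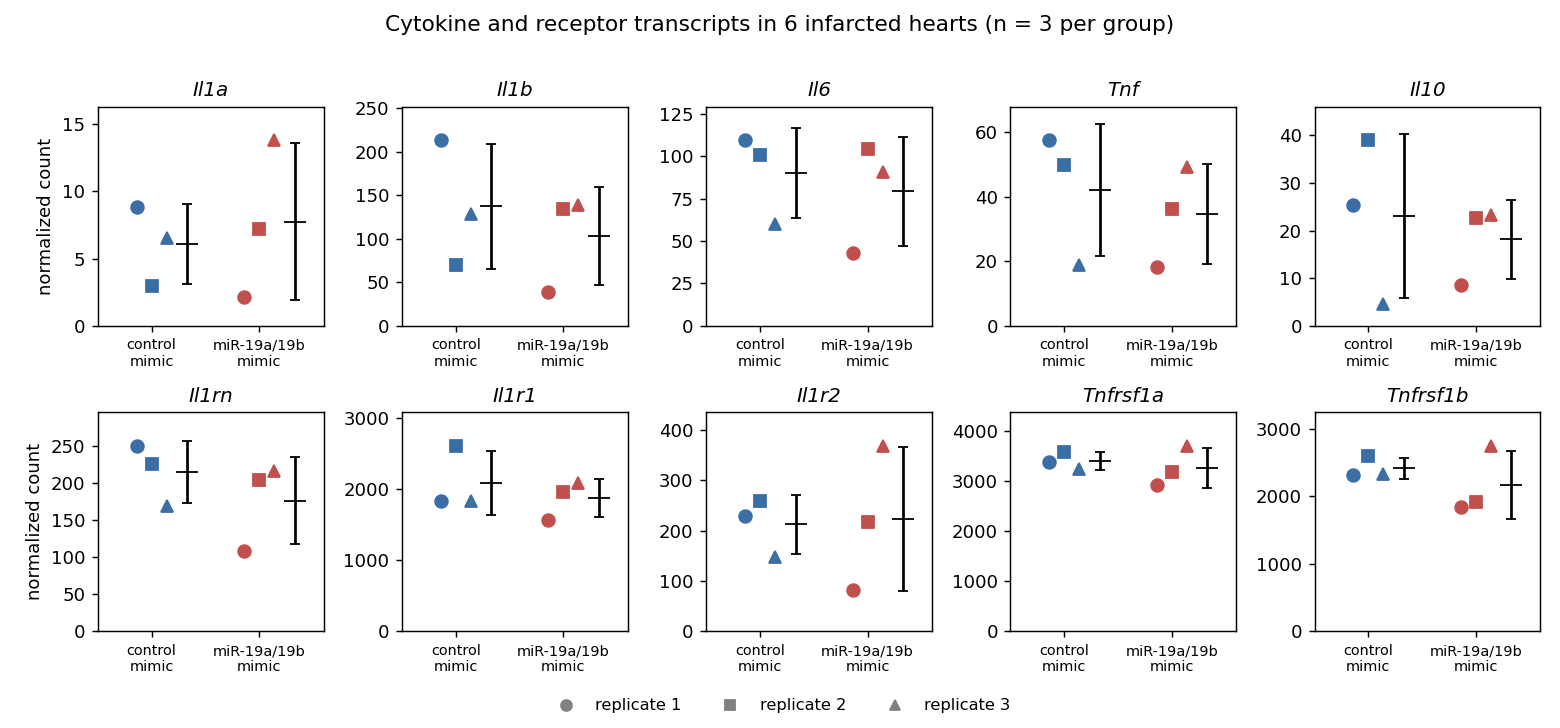
Normalized counts (vertical axes, each starting at 0) of the 10 genes in the 3 control mimic hearts (blue) and the 3 miR-19a/19b mimic hearts (red), 1 point per heart with its replicate number as shape, and mean ± SD beside them. The groups overlap in every panel, and miR-19a/19b mimic replicate 1 (red circle) is the lowest of its group throughout.

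Il1b, the main secreted IL-1 of myeloid cells (ENSMUSG00000027398, chr2:129364570-129371139, minus strand), had 213.3, 70.3 and 128.9 normalized counts in control mimic replicates 1 to 3 and 38.7, 134.0 and 138.3 in miR-19a/19b mimic replicates 1 to 3. Control mimic replicate 1 was the highest and miR-19a/19b mimic replicate 1 the lowest of the 6, and of the other 4, both control mimic hearts lay below both miR-19a/19b mimic hearts, opposite to the order of the extremes. The means were 137.5 ± 71.9 (SD, n = 3) and 103.7 ± 56.3, a log2 fold change of -0.47 (SE 0.52, adjusted p = 1.0 from limma). The 95% interval of the fold ran from 0.317 to 1.65, so that a large fall and a rise both lie within it. Leaving out miR-19a/19b mimic replicate 1 turned the log2 fold change to 0.13, and leaving out control mimic replicate 2 moved it to -0.88. Il1a, which is kept largely inside cells and released when they are damaged (ENSMUSG00000027399, chr2:129299610-129309972, minus strand), rested on 2 to 16 reads per heart. Its normalized counts were 8.84, 2.93 and 6.54 in control mimic hearts and 2.15, 7.22 and 13.8 in miR-19a/19b mimic hearts. The groups overlapped (log2 fold change 0.13, SE 0.63, adjusted p = 1.0 from limma), and the sign of the change turned without control mimic replicate 2 (-0.24) or miR-19a/19b mimic replicate 3 (-0.38). Il1a and Il1b are overlapped on the other strand by Gm14023 and Il1bos, and since counting by strand is not stated, reads of either partner may be included.

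Il6, which acts through gp130 and STAT3 (ENSMUSG00000025746, chr5:30013114-30019981, plus strand), had 109.4, 100.5 and 59.8 normalized counts in control mimic hearts and 43.0, 104.1 and 90.8 in miR-19a/19b mimic hearts. In each group 1 heart was low, control mimic replicate 3 and miR-19a/19b mimic replicate 1, and the other 4 hearts lay within 90.8 to 109.4. The log2 fold change was -0.23 (SE 0.35, adjusted p = 1.0 from limma), with an interval of the fold from 0.49 to 1.49. Tnf (ENSMUSG00000024401, chr17:35199381-35202007, minus strand) showed the same low hearts. It had 57.5, 49.8 and 18.7 normalized counts in control mimic hearts and 18.3, 36.1 and 49.3 in miR-19a/19b mimic hearts, for a log2 fold change of -0.23 (SE 0.48, adjusted p = 1.0 from limma). With a seed match in its 3′ UTR, its interval of the fold was 0.401 to 1.8, which includes falls, rises and no change.

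Il10, the anti-inflammatory cytokine of the set (ENSMUSG00000016529, chr1:131019845-131024974, plus strand), had 25.4, 39.0 and 4.67 normalized counts in control mimic hearts and 8.61, 22.7 and 23.3 in miR-19a/19b mimic hearts. Its lowest heart was control mimic replicate 3, with 5 reads, and its second lowest miR-19a/19b mimic replicate 1, with 8 reads. The log2 fold change was -0.04 (SE 0.70, adjusted p = 1.0 from limma), the widest error of the 10, and it ranged from -0.88 without control mimic replicate 3 to 0.53 without control mimic replicate 2. The 95% interval of the fold was 0.324 to 2.93, and any difference within it was not detectable here.

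Il1rn, the secreted antagonist (ENSMUSG00000026981, chr2:24336853-24351494, plus strand), had 249.8, 225.4 and 169.1 normalized counts in control mimic hearts and 108.7, 203.1 and 216.1 in miR-19a/19b mimic hearts. As for Il6 and Tnf, control mimic replicate 3 and miR-19a/19b mimic replicate 1 were the lowest of their groups. The log2 fold change was -0.33 (SE 0.27, adjusted p = 1.0 from limma), and without miR-19a/19b mimic replicate 1 it was -0.02. Il1r2, the decoy receptor, which is abundant on neutrophils (ENSMUSG00000026073, chr1:40074079-40125231, plus strand), had 229.9, 259.6 and 146.7 normalized counts in control mimic hearts and 81.8, 217.5 and 368.2 in miR-19a/19b mimic hearts. Both the lowest and the highest of the 6 hearts were miR-19a/19b mimic hearts, 4.5-fold apart. Its log2 fold change was -0.14 (SE 0.47, adjusted p = 1.0 from limma) and above 0 in DESeq2 (0.07) and edgeR (0.08). Gm37347 overlaps Il1r2 on the same strand and Gm16894 on the other, so its counts are uncertain as well.

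Of the signalling receptors, Tnfrsf1a, the death-domain receptor of TNF (ENSMUSG00000030341, chr6:125349362-125362484, plus strand), had 3377.6, 3585.5 and 3240.8 normalized counts in control mimic hearts and 2924.3, 3181.6 and 3707.6 in miR-19a/19b mimic hearts, for a log2 fold change of -0.06 (SE 0.12, adjusted p = 1.0 from limma). The interval of the fold, 0.796 to 1.15, was the narrowest of the 10. Tnfrsf1b (ENSMUSG00000028599, chr4:145213463-145246870, minus strand), which carries 2 of the 5 seed matches, had 2315.5, 2597.9 and 2334.6 normalized counts in control mimic hearts and 1846.3, 1917.6 and 2748.0 in miR-19a/19b mimic hearts. miR-19a/19b mimic replicates 1 and 2 lay below every control mimic heart and replicate 3 above every one. The log2 fold change was -0.18 (SE 0.16, adjusted p = 1.0 from limma), and without miR-19a/19b mimic replicate 3 it was -0.36 (SE 0.09, adjusted p = 0.0703, unadjusted p = 0.00245 from limma), the single case in which a member had an unadjusted p-value under 0.05 with 1 heart left out. Il1r1 (ENSMUSG00000026072, chr1:40225080-40317257, plus strand, overlapped on the same strand by Gm38070) had 1840.2, 2613.5 and 1830.2 normalized counts in control mimic hearts and 1569.8, 1967.1 and 2088.5 in miR-19a/19b mimic hearts. Control mimic replicate 2 stood above the other 5 hearts, and the log2 fold change was -0.15 (SE 0.17, adjusted p = 1.0 from limma).

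**Figure D2:**
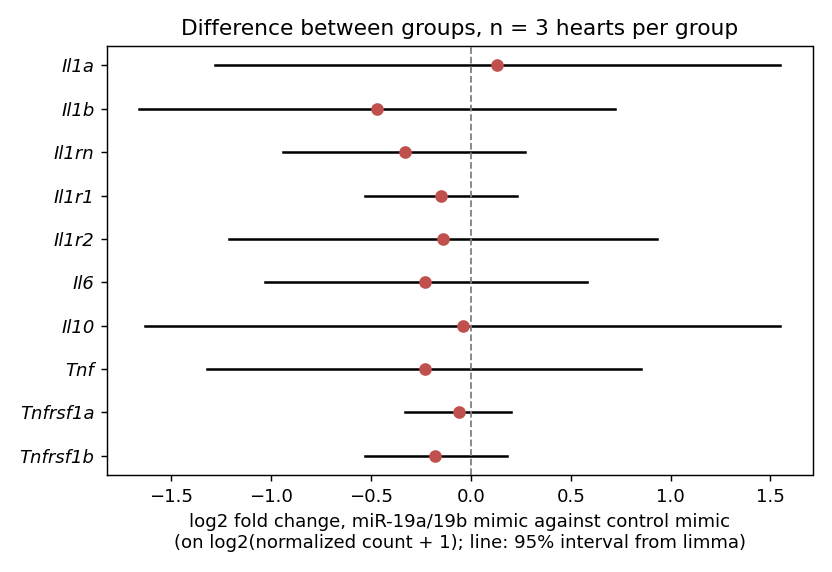
Log2 fold change of each gene, miR-19a/19b mimic against control mimic on log2(normalized count + 1), as points, with the 95% interval from limma as lines (n = 3 hearts per group). Each of the 10 intervals includes 0, from the narrowest in Tnfrsf1a to the widest in Il10 (fold of 0.324 to 2.93).

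Per length of the gene model, the signalling receptors were more abundant than the cytokines in both groups. In control mimic hearts the means in normalized counts per kb were 1313 for Tnfrsf1a, 633 for Tnfrsf1b, 329 for Il1r1, 111 for Il1r2, 72.1 for Il1b, 38.8 for Il1rn, 37.0 for Il6, 25.6 for Tnf, 17.6 for Il10 and 3.09 for Il1a. In miR-19a/19b mimic hearts they were 1263 for Tnfrsf1a, 569 for Tnfrsf1b, 295 for Il1r1, 117 for Il1r2, 54.4 for Il1b, 32.7 for Il6, 31.8 for Il1rn, 21.1 for Tnf, 13.9 for Il10 and 3.92 for Il1a. The order of Tnfrsf1a, Tnfrsf1b, Il1r1 and Il1r2 held without overlap between neighbours over the hearts of either group. From Il1r2 downwards, the range of each gene over the hearts overlapped that of the next in order in both groups. Compared within single hearts, Il1r2 was above Il1b, Il6 above Tnf, Tnf above Il10 and Il10 above Il1a in every heart. Il1b was below Il1rn in control mimic replicate 2 (36.8 against 40.7 per kb), and Il1rn and Il6 changed places between hearts.

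How far the hearts of a group differed from each other depended on the gene. The coefficient of variation (CV, the SD as a percent of the mean) in control mimic hearts was 5.1% for Tnfrsf1a and 6.53% for Tnfrsf1b, about 20% for Il1rn and Il1r1 (19.3% and 21.5%), 27.6% for Il1r2, 29.4% for Il6, 48.8% for Il1a, 48.9% for Tnf, 52.3% for Il1b and 75.1% for Il10. In miR-19a/19b mimic hearts it was 12.2% for Tnfrsf1a, 14.5% for Il1r1, 23.1% for Tnfrsf1b, 33.3% for Il1rn, 40.5% for Il6, 45% for Tnf, 45.7% for Il10, 54.3% for Il1b, 64.4% for Il1r2 and 75.7% for Il1a. The CVs of the secreted cytokines were thus larger than those of the signalling receptors in both groups, but these receptors also had far higher counts. Read counting alone would give a CV of 8.63% for Il1b and 21.0% for Il10 in control mimic hearts, and of 40.8% for Il1a, where 48.8% was observed. In miR-19a/19b mimic hearts it would be 22.9% for Il10 and 34.6% for Il1a, below the observed 45.7% and 75.7%. Genes with a mean within 2-fold had a median CV of 11.8% beside Il1b, 24.2% beside Il10, 19.3% beside Tnf and 14% beside Il6 in control mimic hearts, and the CV was larger than in 99.5%, 99.3%, 95.7% and 91.3% of those genes. For Il1r2 in miR-19a/19b mimic hearts the share was 99.5%, with a median of 13.0% among genes of like level. Beside genes of like level, cytokines and signalling receptors were not cleanly apart. In control mimic hearts the share was 97.1% for Il1r1 and 58.5% for Il1a, with 47.4% for Tnfrsf1b and 32.6% for Tnfrsf1a. In miR-19a/19b mimic hearts it was 84.1% for Tnfrsf1b, 67.2% for Il1r1 and 54.0% for Tnfrsf1a. There Il10 was at 80.1% and the other cytokines at 87.6% to 98.0%. The CV was above the median of genes of like level for 8 of the 10 members in control mimic hearts, all but the TNF receptors, and for 10 of 10 in miR-19a/19b mimic hearts.

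**Figure D3:**
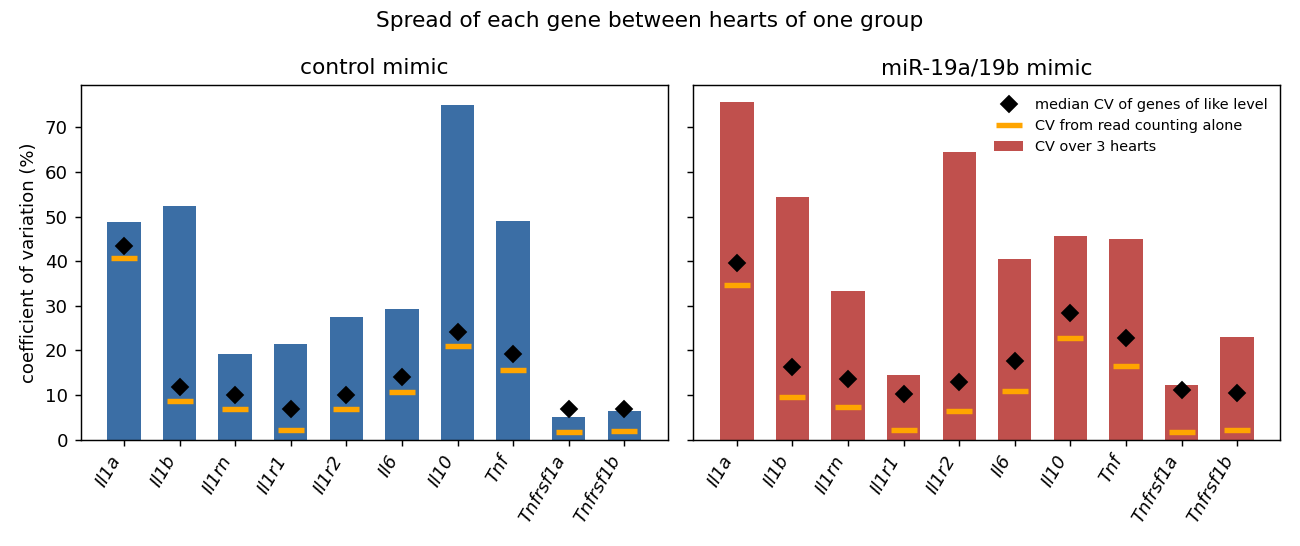
Coefficient of variation in percent (vertical axis from 0) of each gene over the 3 control mimic hearts (left) and the 3 miR-19a/19b mimic hearts (right). Diamonds mark the median of genes with a mean within 2-fold and short bars the CV that read counting alone gives. Il10 (75.1%) and Il1b (52.3%) stand furthest above their diamonds among control mimic hearts and Il1r2 (64.4%) among miR-19a/19b mimic hearts.

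The spread had a shared shape, with the same hearts low in gene after gene. miR-19a/19b mimic replicate 1 was the lowest of its group for 10 of the 10 members, as it was for 33.5% of all genes tested, and the lowest of all 6 hearts for 9 of them. Control mimic replicate 3 was the lowest of its group for 7 of the 10, against 32.8% of all genes tested. The exceptions in the control mimic group were Il1a and Il1b, lowest in replicate 2, and Tnfrsf1b, lowest in replicate 1 by a small margin (2315.5 against 2334.6 in replicate 3). Il1r1, counted among the 7, was also lowest in replicate 3 by a small margin only (1830.2 against 1840.2 in replicate 1). At the other end, miR-19a/19b mimic replicate 3 was the highest of its group for 9 of the 10, the exception being Il6, against 39.7% of all genes tested. The median CV over the 10 genes was 28.5% in control mimic hearts and 9.37% without replicate 3. Without replicate 1 or 2 it was 37.6% or 29.2%. In miR-19a/19b mimic hearts it was 42.7%, and 10.2% without replicate 1. Without replicate 2 or 3 it was 57.6% or 52.5%. The 2 hearts whose removal lowered it had been picked as lowest for these same genes, so the fall follows in part from that choice. With all 3 hearts of a group, the median CV over all genes tested was 13.5% in control mimic and 19.1% in miR-19a/19b mimic hearts. The genes share libraries and many share a cell of origin, and this description carries no test.

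Sums of neutrophil, monocyte, B cell and mast cell markers were lowest, within each group, in control mimic replicate 3 and miR-19a/19b mimic replicate 1. In these hearts the B cell sums were 158.8 and 130.2 and the mast cell sums 508.2 and 432.5. Macrophage and T cell sums followed this in 1 group each, the lowest macrophage sum of the control mimic group being in replicate 1 (82730, against 84546 in replicate 3) and the lowest T cell sum of the miR-19a/19b mimic group in replicate 2 (177, against 201 in replicate 1). The counts given for these lists stand beside 49.2% of all genes tested with a fitted change below 0 and 4.01% with an unadjusted p-value under 0.05. The summed normalized counts of 12 neutrophil genes were 2061, 1971 and 1766 in control mimic replicates 1 to 3 and 854, 1481 and 2618 in miR-19a/19b mimic replicates 1 to 3. Ngp, Camp and Ly6g of that list were at 0 in at least 1 heart and Elane was below the filter, while S100a8, S100a9, Csf3r, Cxcr2, Retnlg and Mmp8 were above 0 in all 6. In limma 9 of its 11 tested genes had a fitted change below 0 and 1 had an unadjusted p-value under 0.05. The sums of the 11 macrophage genes in the table ran from 82730 to 97557 in control mimic hearts and from 67661 to 103531 in miR-19a/19b mimic hearts, again lowest in miR-19a/19b mimic replicate 1 and highest in replicate 3, with 9 of 11 below 0 and 1 at an unadjusted p-value under 0.05. Those of the 7 monocyte genes did not overlap, 8296 to 9818 against 5820 to 7610, with 6 of 7 below 0 and 4 at an unadjusted p-value under 0.05, and those of the 8 T cell genes were 224 to 329 against 177 to 205, with 7 of 8 below 0 and 2 at that threshold. Cardiomyocyte sums were highest in control mimic replicate 3 and in miR-19a/19b mimic replicate 1 of their groups, the hearts with low cytokine transcripts, and lowest in miR-19a/19b mimic replicate 3. The part of cell composition in the spread of the cytokines was not tested.

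**Figure D4:**
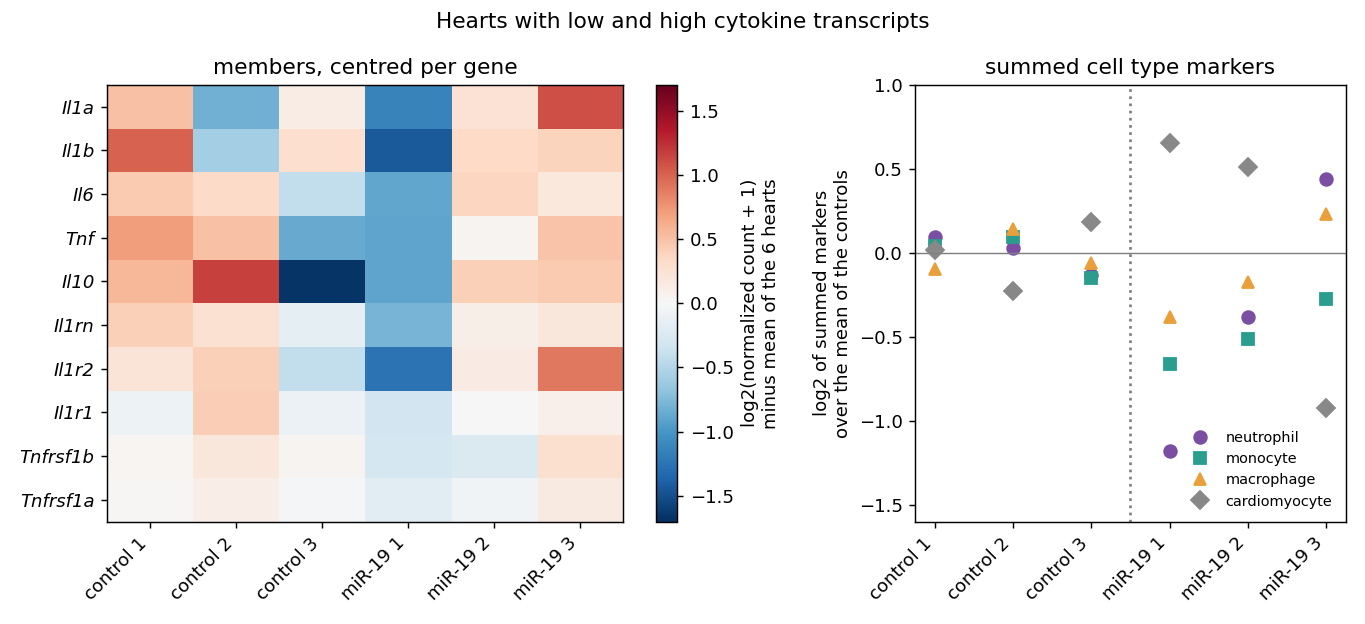
Left, log2(normalized count + 1) of each gene minus its mean over the 6 hearts, as colour, with 1 column per heart. Right, log2 of the summed markers of neutrophils (12 genes), monocytes (7), macrophages (11) and cardiomyocytes (9) in each heart over the mean of the control mimic hearts. The column of miR-19a/19b mimic replicate 1 is blue for all 10 genes, and in the same heart the neutrophil sum is lowest and the cardiomyocyte sum highest.

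Ratios within a heart do not depend on the scaling of the library, and 4 were compared. The ratio of Il1rn to Il1b, of antagonist to agonist, was 1.17, 3.21 and 1.31 in control mimic hearts and 2.81, 1.52 and 1.56 in miR-19a/19b mimic hearts. It was high in control mimic replicate 2 and miR-19a/19b mimic replicate 1, the hearts with the lowest Il1b of their groups. The difference of the mean log2 ratio was 0.14 (exact permutation test, two-sided, p = 0.6, adjusted over the 4 ratios p = 0.933). For Il1r2 to Il1r1, of decoy to signalling receptor, the ratio was 0.125, 0.0993 and 0.0801 in control mimic hearts and 0.0521, 0.111 and 0.176 in miR-19a/19b mimic hearts, with a difference of 0.01 on the log2 scale (exact permutation p = 1.0, adjusted p = 1.0). Il10 to Tnf was 0.442, 0.784 and 0.25 against 0.471, 0.629 and 0.474, a difference of 0.23 (exact permutation p = 0.7, adjusted p = 0.933). Tnfrsf1b to Tnfrsf1a was the steadiest, at 0.686, 0.725 and 0.72 against 0.631, 0.603 and 0.741, a difference of -0.11 (exact permutation p = 0.4, adjusted p = 0.933). With 3 hearts against 3 this test cannot give a p-value below 0.1.

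Among the wider pathway genes, Il1rap, Il18, Il18bp, Lif, Il10ra, Rel and Csf1 were lower and Cebpb was higher after miR-19a/19b mimic at the unadjusted threshold, and none of them at the adjusted one. Of 128 genes in 7 lists, 120 were in the table and 116 were tested, of which 7 were lower and 1 higher at an unadjusted p-value under 0.05, beside 2.63% lower and 1.39% higher of all genes tested, and 0 passed the adjusted threshold. The median log2 fold change of the 116 was -0.06, and 80 of them were below 0, beside 49.2% of all genes tested. In the IL-1 family list (19 tested) 3 were lower, namely Il1rap, the accessory chain that IL-1 receptors need to signal (log2 fold change -0.35, SE 0.12, unadjusted p = 0.0166, adjusted p = 1.0 from limma), Il18bp, the soluble inhibitor of IL-18 (-0.40, SE 0.14, unadjusted p = 0.0229, adjusted p = 1.0), and Il18 itself (-0.53, SE 0.23, unadjusted p = 0.0472, adjusted p = 1.0). Il1rap had 326.0, 394.3 and 386.8 normalized counts in control mimic hearts and 274.4, 288.7 and 300.0 in miR-19a/19b mimic hearts, without overlap. Il18 went from 114.9, 111.3 and 107.4 to 64.6, 62.9 and 110.6, so that 1 treated heart lay within the control range.

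In the list of IL-6 family genes (19 tested), Lif, a cytokine that signals through gp130 like IL-6, had the smallest p-value of all 7 lists. Its normalized counts were 134.8, 142.5 and 171.0 in control mimic hearts and 81.8, 109.3 and 77.8 in miR-19a/19b mimic hearts, with every treated heart below every control. Its log2 fold change was -0.74 (SE 0.18, unadjusted p = 0.00311, adjusted p = 0.877 from limma). Cebpb, a transcription factor induced by IL-6 and IL-1, was the 1 higher gene, from 1592.7, 1947.0 and 1443.4 to 1920.5, 2176.4 and 2245.8 normalized counts (log2 fold change 0.36, SE 0.13, unadjusted p = 0.0239, adjusted p = 1.0), with overlap between the groups. Il10ra, the ligand-binding chain of the IL-10 receptor, was the 1 lower gene among 9 tested of the IL-10 list. It had 1033.4, 1216.0 and 1197.7 normalized counts in control mimic hearts and 792.9, 728.9 and 1007.9 in miR-19a/19b mimic hearts (log2 fold change -0.46, SE 0.14, unadjusted p = 0.00935, adjusted p = 1.0).

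Rel, an NF-kB subunit of leukocytes, was the 1 lower gene of 13 in the list of NF-kB factors and inhibitors (log2 fold change -0.27, SE 0.10, unadjusted p = 0.0227, adjusted p = 1.0 from limma). Csf1, the growth factor of macrophages, was the 1 lower gene of 20 tested in the list of IL-1 and TNF response genes, from 2375.2, 2381.2 and 2344.9 to 2019.5, 1992.9 and 1992.5 normalized counts (log2 fold change -0.24, SE 0.09, unadjusted p = 0.0236, adjusted p = 1.0). The groups did not overlap for Csf1, and the fold was small. Its CV over the hearts was 0.822% in control mimic and 0.773% in miR-19a/19b mimic hearts. Read counting alone would give 2.06% and 2.21%, so the observed spread understates the uncertainty of this difference. Of the 8 genes, Lif and Il10ra had an unadjusted p-value under 0.05 in 6 of the 6 limma fits that leave out 1 heart, Il1rap, Il18bp and Cebpb in 3 of 6, Rel and Csf1 in 2 of 6 and Il18 in 1 of 6. With all 6 hearts, Il18 had one in only 2 of 8 alternative fits (p of 0.0453 to 0.0807), and Rel and Csf1 in 7 of 8. In the list of TNF family and signalling genes 0 of 25 had an unadjusted p-value under 0.05, and the smallest was that of Cyld, a deubiquitinase that limits TNF signalling (0.0657). For the list of IL-1 processing genes the sums were 10264 to 10352 in control mimic and 9311 to 9874 in miR-19a/19b mimic hearts. They did not overlap, while those of every other pathway list did. Abundant genes weigh most in a sum, and 2 of the 11 genes did not overlap, beside 9.2% of all genes tested. Of the 11, 0 passed either threshold, with the smallest p-value in Casp4, an inflammatory caspase (0.0725 from limma). Fitted changes were below 0 for 11 of 11, beside 49.2% of all genes tested, with a median of -0.14. The counts moved most when miR-19a/19b mimic replicate 3 was left out, to 22 lower and 2 higher at the unadjusted threshold, and then 3 genes passed the adjusted one, Il10ra (log2 fold change -0.59, adjusted p = 0.021 from limma), Il18 (-0.79, adjusted p = 0.0411) and Sod2, the mitochondrial superoxide dismutase (0.61, adjusted p = 0.0267), which was named after its values were seen. Over all genes in that fit, 1289 were lower and 1778 higher at the unadjusted threshold. At the adjusted one 164 were lower and 383 higher, and 0 of the 10 members were called.

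To describe which transcripts followed the cytokines from heart to heart, the log2 values of each gene were centred on their mean over the 6 hearts, and the root mean square difference from a cytokine was taken over the genes with a mean of at least 100 normalized counts. It is a description with no test, since many genes share these 6 libraries. The nearest to Il6 was Mmp3, stromelysin, a matrix protease induced by IL-1, at 0.13 log2 units, where the median gene was at 0.51. Mmp3 had 420.0, 419.6 and 221.4 normalized counts in control mimic hearts and 202.3, 483.5 and 356.1 in miR-19a/19b mimic hearts, and so was low in the same hearts as Il6. Sh2d5 (0.151) and Il1rn (0.16) followed. For Tnf they were Cxcl5, a neutrophil chemokine (0.217), Ccl7, a monocyte chemokine (0.269), and Cxcr2, the neutrophil receptor of CXC chemokines (0.286), against a median of 0.66. For Il10 they were Ccl7 (0.369), Cxcl5 (0.512) and Serpina3g (0.516), against 0.98. For Il1b they were Ms4a8a (0.348), the cystine transporter Slc7a11 (0.42) and Padi4, the neutrophil enzyme that citrullinates histones (0.437), against 0.80. Cxcl5 had 569.2, 470.4 and 198.1 normalized counts in control mimic hearts and 129.1, 394.9 and 498.8 in miR-19a/19b mimic hearts, with the lowest values in the hearts that were low for Tnf.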

How the data were processed

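RNA-seq libraries of polyadenylated RNA from 3 control mimic and 3 miR-19a/19b mimic hearts were compared, with groups and replicate numbers taken from the sample titles. The authors removed adapter and low-quality reads, aligned 150 bp paired-end reads with STAR (2.5.1b) and counted reads per gene with HTSeq (0.6.0). The deposited signal is a normalized count, the count divided by a size factor of the library, and the factors (0.9048 to 1.157) were those that DESeq2 computes. Processing notes of the submitters name DESeq2 (1.10.1), and the study's methods name edgeR for differential expression. The deposited fold changes and p-values of the authors, and their list of called genes, were not used. The same notes name mm9, but of 25884 genes found in GENCODE M21 (GRCm38) 82.7% had the same start and end, as did all 10 members, so coordinates are on GRCm38.

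In each library 100.0% of values were whole multiples of 1 read within 0.01, so reads were recovered for DESeq2 (1.42.0), edgeR (4.0.16) and limma-voom, which served as alternatives and called 28 lower and 1 higher, 0, and 0 genes in all at an adjusted p-value under 0.05. The main test was limma (3.58.1, R 4.3.3) with a trended prior. Its 95% intervals use the moderated degrees of freedom. Each test was first tried on simulated counts with 200 genes changed 2-fold. None of the changed genes was as low as Il1a and no outlying heart was simulated, so this trial does not show the power for the members. Other alternatives were other filters, a pseudocount of 0.1, TMM scaling, a replicate block and each heart left out. The hearts are described as biological replicates, and no litter or batch is given.

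Members and lists were chosen with earlier results of these data known. Genes named are the members, list genes with an unadjusted p-value under 0.05 (or the smallest p of a list), and the 3 genes nearest to each of 4 cytokines. Outside this rule, overlapping genes, genes of the neutrophil marker list and Sod2 are named. The lists were 7 pathway lists and markers of 10 cell types. Itgam of the macrophage list was not analysed here. 3′ UTRs were the longest annotated in GENCODE M21, after the stop codon.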

Additional observations from a re-analysis of the deposited data

How the results depend on the processing

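In all fits tried, 0 of the 10 members had an adjusted p-value under 0.05. With all 6 hearts, 76 of 79 log2 fold changes of members kept their direction. The exceptions were Il1r2 (0.07 with DESeq2, 0.08 with edgeR) and Il10 (0.04 with limma-voom). Il1a could not be fitted at a mean of at least 10. With 1 heart left out 13 of 60 turned, and the ranges were -0.38 to 0.74 for Il1a, -0.88 to 0.13 for Il1b, -0.24 to 0.02 for Il1r1, -0.62 to 0.46 for Il1r2, -0.49 to 0.16 for Il6, -0.88 to 0.53 for Il10, -0.72 to 0.15 for Tnf and -0.16 to 0.02 for Tnfrsf1a. Log2 ratio differences ranged from -0.15 to 0.60 for Il1rn to Il1b, from -0.40 to 0.48 for Il1r2 to Il1r1 and from -0.18 to 0.64 for Il10 to Tnf. The median CV ranged from 9.37% to 37.6% in control mimic and from 10.2% to 57.6% in miR-19a/19b mimic hearts. Members with an unadjusted p-value under 0.05 ranged from 0 to 1. Pathway genes ranged from 2 to 22 lower and 0 to 2 higher at the unadjusted threshold, and from 0 to 3 at the adjusted one.

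Over all genes, DESeq2 gave 28 lower and 1 higher at the adjusted threshold, where limma gave 0 and 0. At the unadjusted threshold limma gave 555 lower and 293 higher, and the higher genes were 177 with DESeq2 and 172 at a mean of at least 10. With 1 heart left out they ranged from 369 to 1289 lower and 208 to 1778 higher at the unadjusted threshold, and from 0 to 164 lower and 0 to 383 higher at the adjusted one, each highest when miR-19a/19b mimic replicate 3 was left out. What caused these shifts was not tested.

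Replicate numbers are shared between the groups, but same-numbered hearts did not deviate together (correlations of -0.02, -0.168 and -0.289 over 15513 genes, and 0 of 6 hearts closest to their own number). With the replicate number as a block, 4 pathway genes were lower at the unadjusted threshold in place of 7, with Il18 (unadjusted p = 0.0634), Rel (unadjusted p = 0.0588) and Csf1 (unadjusted p = 0.0708) no longer under it in limma, and 0 members were called. Il18 was also over it with DESeq2 (unadjusted p = 0.0807), edgeR (unadjusted p = 0.0772), limma-voom (unadjusted p = 0.0563), TMM scaling (unadjusted p = 0.0504) and a mean of at least 10 (unadjusted p = 0.0528). Il1a rests on 2 to 16 reads per heart and Il10 on 5 to 40.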

Other observations

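Fitted changes of the cell type markers not given above were as follows. Of 5 mast cell genes tested, 4 had a fitted change above 0 with a median log2 fold change of 0.71, and 0 had an unadjusted p-value under 0.05. The 5 erythrocyte genes were all below 0 in the fit with a median of -0.46, with 2 at an unadjusted p-value under 0.05. Medians were -0.30 over 5 B cell genes, -0.02 over 7 fibroblast genes, 0.00 over 6 endothelial genes and 0.14 over 9 cardiomyocyte genes, and 0 genes of these lists had an unadjusted p-value under 0.05. For comparison, 4.01% of all genes tested did.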
